A study of Gallus gallus with 89 samples.

Results

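KRT7, KRT18 and KRT19, the keratin genes of simple epithelia, are described here in the amniogenic somatopleure of the chick, where surface ectoderm overlies somatic mesoderm and from which the amnion forms. They are 3 of 13823 gene rows, chosen by name, and were followed over all 89 single cells of the series. The embryos were wild type and untreated, at stage 10 of embryonic day 1.5. Tissue of more than 15 of them was pooled, freed into single cells with trypsin and sorted into chambers of the Fluidigm C1. The cells carry no label of embryo, layer or cell type and were treated as 1 pooled sample.

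A cell was called ectoderm-marked when at least 2 of CDH1 (E-cadherin), TFAP2A (a transcription factor of surface ectoderm) and CLDN3 (a tight junction claudin) were at 10 CPM or more, the level also taken as detection. CPM are read counts scaled to the same total in each cell. That held for 27 cells (14 with the title prefix X09 and 13 with X29), and the other 62 cells (44 X09 and 18 X29) were set against them. The labels do not say what the prefixes stand for, so values are repeated within each. Cell numbers in the titles recur under both prefixes, so whether all cells came from 1 chip and 1 pool is not known. The 3 markers were detected in 22, 26 and 25 of the 27 ectoderm-marked cells, against 1, 5 and 2 of the 62 other cells. The mesenchymal homeobox gene PRRX1 was detected in 5 ectoderm-marked cells, against 55 of the other cells. Within the other cells, 38 were mesenchyme-marked (at least 2 of PRRX1, PDGFRA and TWIST1), 5 were endothelial-marked (at least 3 of CDH5, FLI1, KDR and LMO2) and 19 met neither rule, of which 16 had 1 of the mesenchyme markers. Cells of 1 pool are not replicates, so no test was run, and SDs, ranges and correlations describe these cells only.

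Keratins form intermediate filaments, and a filament is built from pairs of one type I and one type II chain. KRT18 and KRT19 are type I chains and KRT7 is a type II chain. In mammals these chains mark simple epithelia, trophoblast and the amnion, and KRT18 usually pairs with KRT8. No row of that name was among the counts, so KRT8 could not be analysed here. The names are those of the deposited table. In the RefSeq gene list of the later build GRCg7b, the gene with the synonym KRT19 bears the symbol KRT24, and the one with the synonym KRT15 bears KRT13. Reads of similar keratin genes may have been shared out between them in counting, which was not tested.

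Gene reads per cell ranged from 1071047 to 2200147 in ectoderm-marked cells, with a median of 1545740, and from 328645 to 2381723 in the other cells, with a median of 1417670. Mitochondrial genes took a median of 5.01% of gene reads in ectoderm-marked cells and 4.26% in the other cells. Cells with over 20% mitochondrial reads or under 3000 genes with a read numbered 1 in the ectoderm-marked group and 5 among the other cells. They are called doubtful below.

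All 3 keratins were detected in every one of the 27 ectoderm-marked cells (exact Clopper-Pearson interval at 95%, 87.2 to 100%), and in nearly all of the other cells. KRT7 was detected in 61 of the 62 other cells (98.4%, interval 91.3 to 99.96%). KRT18 and KRT19 were each detected in 58 of the 62 (93.5%, interval 84.3 to 98.2%). These intervals cover counting error only. Of the 5 other cells that lacked 1 keratin or more, 4 were endothelial-marked, and the fifth was a mesenchyme-marked cell with no read of KRT18, 1436 CPM of KRT7 and 515 CPM of KRT19.

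The level of KRT7, the type II chain, was 43.4 CPM in the lowest, 3735 CPM in the median and 13426 CPM in the highest ectoderm-marked cell. In the other cells its lowest, median and highest levels were 0, 5970 and 13376 CPM. The ranges overlapped almost whole, since 61 of the 62 other cells lay inside the range of the ectoderm-marked cells. The lower end of that range was set by an X09 cell alone, the next lowest ectoderm-marked cell having 1107 CPM. Mesenchyme-marked cells at 366 to 1038 CPM and all endothelial-marked cells lay under 1107 CPM. Mean levels were 4296 ± 3143 CPM in ectoderm-marked cells and 5158 ± 3081 CPM in the other cells (SD over 27 and 62 cells).

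KRT18, a type I chain, stood at 14.7, 553 and 1483 CPM in the lowest, median and highest ectoderm-marked cell, against 0, 660 and 2106 CPM in the other cells. Of the other cells, 54 lay inside the range of the ectoderm-marked cells, 4 below and 4 above it. KRT19, the second type I chain, stood at 344, 2013 and 7924 CPM in the lowest, median and highest ectoderm-marked cell, against 0, 1596 and 7277 CPM in the other cells. Here 6 other cells lay under the lowest ectoderm-marked cell and 2 ectoderm-marked cells lay above the highest other cell.

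**Figure D1:**
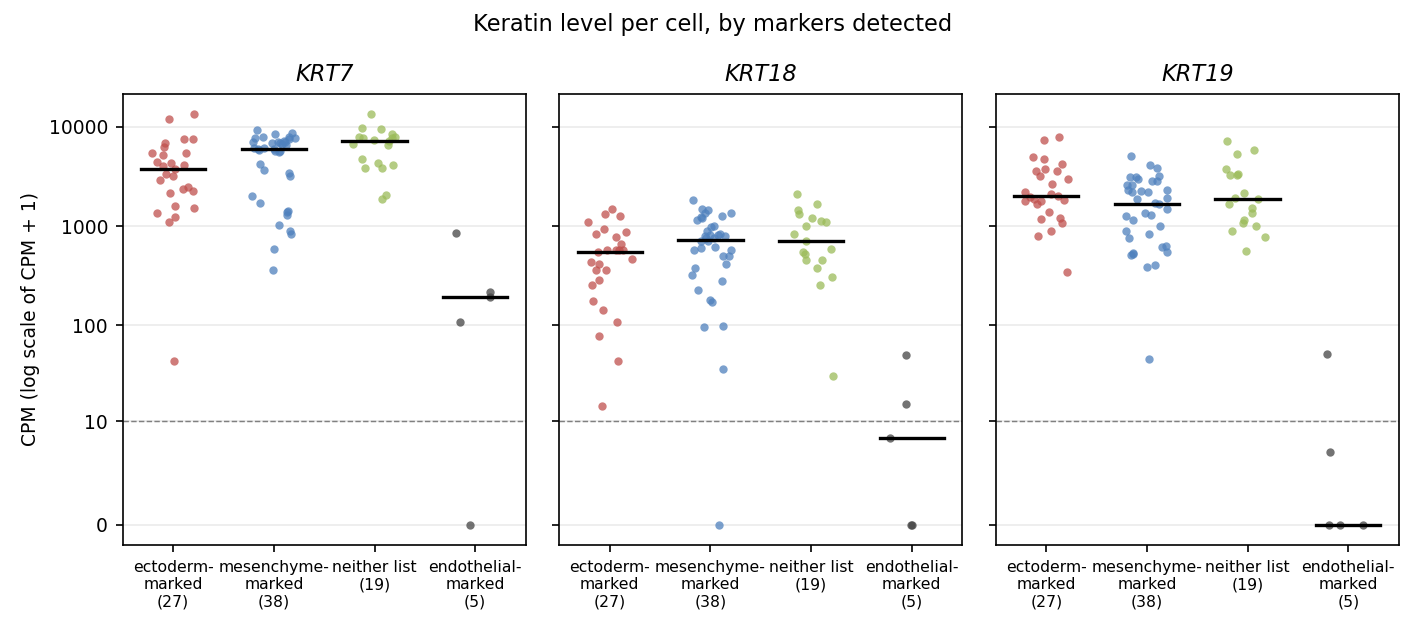
Levels of KRT7, KRT18 and KRT19 in each cell, in CPM on a log scale of CPM + 1, by the markers the cell detected (number of cells in brackets). Points are cells, black bars are medians and the dashed line is the detection level of 10 CPM. The 27 ectoderm-marked, the 38 mesenchyme-marked cells and the 19 cells of neither list overlap for each keratin, while the 5 endothelial-marked cells reach at most 858 CPM of KRT7, 50.4 CPM of KRT18 and 51.1 CPM of KRT19.

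None of the 3 differed between ectoderm-marked and other cells by the size rule used for all genes. That rule asks for means at least 2-fold apart (1 CPM added to each) in the same direction in X09 and in X29 cells. Of 9755 genes detected in at least 10% of either group, 12.7% were higher and 12.7% lower in ectoderm-marked cells by that rule. A gene under 10% in 1 group counted as measured only through the group where it was detected more often. This holds for the lists below too, so their counts between the groups are descriptions only. The log2 ratio of means, ectoderm-marked over other, was -0.26 for KRT7, -0.33 for KRT18 and 0.52 for KRT19, beside a median of -0.03 over all genes measured. The 3 keratins jointly held a mean of 0.758% of gene reads in ectoderm-marked cells and 0.776% in the other cells.

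For KRT7, and for KRT18 only while the endothelial-marked cells were included, the direction depended on the prefix. KRT7 averaged 3862 CPM in ectoderm-marked X09 cells and 5833 CPM in other X09 cells, but 4765 CPM in ectoderm-marked X29 cells and 3507 CPM in other X29 cells. KRT18 averaged 623 and 811 CPM in ectoderm-marked and other X09 cells, and 506 and 468 CPM in ectoderm-marked and other X29 cells. Without the endothelial-marked cells, 3 of which are X29, the other cells averaged 848 CPM of KRT18 in X09 and 561 CPM in X29, so that KRT18 was the lower in ectoderm-marked cells under both prefixes. KRT7 kept its change of direction without them, at a log2 ratio of -0.66 within X09 and 0.19 within X29. KRT19 was the higher in ectoderm-marked cells under both prefixes, with 2558 and 2175 CPM in ectoderm-marked and other X09 cells and 2879 and 1208 CPM in ectoderm-marked and other X29 cells. Its log2 ratio was 0.23 within X09 and 1.25 within X29, and 0.17 and 0.99 without the endothelial-marked cells.

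The level did not follow the number of ectoderm markers in order. Median KRT7 was 5870 CPM in the 54 cells with 0 of the 3 markers, 7308 CPM in the 8 cells with 1, 2735 CPM in the 8 cells with 2 and 4004 CPM in the 19 cells with all 3. Median KRT19 was 1425, 2448, 1527 and 2096 CPM in the same 4 sets of cells. The lowest KRT7 and KRT18 among ectoderm-marked cells came from 1 X09 cell that detected all 3 markers, with 68 reads of KRT7, 23 of KRT18 and 538 of KRT19 among 1565817 gene reads.

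Keratins were also detected in other cells without ectoderm transcripts. In 26 of them, none endothelial-marked, there was no read of CDH1, TFAP2A or CLDN3, and EPCAM (an epithelial adhesion molecule) and CLDN1 (a claudin of surface epithelia) were under 10 CPM. KRT7 was detected in all 26, at 839 CPM in the lowest, 6739 CPM in the median and 9338 CPM in the highest cell. KRT19 was likewise detected in all 26, at 407 to 5036 CPM with a median of 1680 CPM, and KRT18 in 25 of them, with a median of 809 CPM. This set of 26 cells was chosen after the data were seen.

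Some of the other cells did hold epithelial transcripts. EPCAM had a median of 1496 CPM in ectoderm-marked and 23 CPM in mesenchyme-marked cells, 20 of which detected it, at up to 619 CPM. CLDN1 had a median of 2644 CPM in ectoderm-marked cells and 0 in mesenchyme-marked cells, 6 of which detected it. The lowest levels in ectoderm-marked cells, 200 CPM of EPCAM and 467 CPM of CLDN1, were both those of 1 X29 cell. That cell also detected 2 of the 3 mesenchyme markers. In 3 other cells, all X09 cells of neither list, EPCAM and CLDN1 both reached these levels. One of them had 268 CPM of EPCAM, under the 341 CPM of the next lowest ectoderm-marked cell. Another of the 3 had 1274 CPM of EPCAM, 2254 CPM of CLDN1, 93.8 CPM of CLDN3 and 1.45 CPM of PRRX1. It was the cell with the highest KRT7 (13376 CPM) and KRT19 (7277 CPM) among the other cells. The third had 1118 CPM of EPCAM, 1854 CPM of CLDN1, 53.9 CPM of TFAP2A and 188 CPM of PRRX1. It had 9015 genes with a read, the most of any cell. Whether a chamber held more than 1 cell was not tested. Without these 3 cells the highest levels among the other cells were 9743 CPM of KRT7 and 5323 CPM of KRT19. The log2 ratio of means was then -0.22 for KRT7, -0.29 for KRT18 and 0.64 for KRT19.

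Mesenchyme-marked cells and the cells of neither list overlapped in all 3 keratins. KRT7 was 366, 5970 and 9338 CPM in the lowest, median and highest of the 38 mesenchyme-marked cells, and 1898, 7251 and 13376 CPM in the 19 cells of neither list. KRT18 had medians of 731 CPM in mesenchyme-marked cells and 705 CPM in cells of neither list, and KRT19 had medians of 1692 and 1877 CPM in these. Of the 19 cells of neither list, 4 were doubtful.

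The endothelial-marked cells were low in all 3 keratins. KRT7 was at 216, 858, 193, 109 and 0 CPM in the 5 cells, KRT18 at 15.4, 50.4, 0, 6.48 and 0 CPM and KRT19 at 0, 51.1, 0, 0 and 4.41 CPM. Every one of these cells was below the first quartile of mesenchyme-marked cells, which was 2311 CPM for KRT7, 391 CPM for KRT18 and 779 CPM for KRT19. The highest value of each keratin came from the same endothelial-marked cell, and KRT19 was below 10 CPM in the other 4. The 5 cells held 453090 to 2062997 gene reads, and the shallowest, with no KRT7 read, was doubtful, with 22.6% mitochondrial reads. All 5 detected each of the 4 endothelial markers used in the rule.

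The 3 keratins varied from cell to cell more than ACTB and EEF1A1 did. The coefficient of variation of CPM was 0.73 for KRT7, 0.71 for KRT18 and 0.69 for KRT19 over ectoderm-marked cells, and 0.60, 0.72 and 0.81 over the other cells. For ACTB (beta-actin) it was 0.39 over ectoderm-marked and 0.35 over the other cells, and for EEF1A1 (a translation factor) 0.31 and 0.27. Some less abundant genes of the same list varied at least as much as KRT7, among them the tubulin gene TUBB at 0.84 and 0.66 and the tropomyosin gene TPM4 at 0.97 and 0.76. The SD of log2(CPM + 1), which gives low cells more weight, was 1.55, 1.56 and 1.01 over ectoderm-marked cells for KRT7, KRT18 and KRT19. Over the other cells it was 2.15, 2.55 and 2.81, but 1.14, 1.76 and 1.24 without the endothelial-marked cells. For ACTB and TUBB it was 0.51 and 1.26 over ectoderm-marked and 0.57 and 1.05 over all other cells. TPM4 had 2.06 and 1.37, and the ezrin gene EZR 2.78 and 3.17, in these groups. The ninetieth percentile of the keratin sum was 5.18 times the tenth over ectoderm-marked cells and 11.3 times over the other cells, or 6.34 times without the endothelial-marked cells. The sum went little with read depth, the Spearman rho with gene reads being 0.08 over the ectoderm-marked and 0.07 over the other cells. With the percentage of spike-in reads, which is higher where a cell gave less RNA, rho was -0.38 over ectoderm-marked and -0.12 over the other cells.

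KRT19 took a larger place beside KRT7 and KRT18 in ectoderm-marked cells. Within a cell that detected both, the ratio of KRT19 to KRT7 reads had a median of 0.658 in the 27 ectoderm-marked cells and 0.333 in 58 other cells. The median log2 ratio was thus 0.98 higher in ectoderm-marked cells, 1.10 higher within X09 and 0.98 within X29. All 27 ectoderm-marked cells lay above the median of the other cells, although the ranges overlapped, at 0.360 to 7.91 in ectoderm-marked cells and 0.044 to 1.70 in the other cells. The highest ratio, 7.91, was that of the X09 cell with 68 reads of KRT7. Since reads also scale with transcript length, the ratios are of reads and not of molecules, and their comparison is between cells.

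KRT18 was lower relative to KRT19 in ectoderm-marked cells, with no steady shift relative to KRT7. The median ratio of KRT18 to KRT19 reads was 0.222 in the 27 ectoderm-marked cells and 0.422 in 57 other cells, a log2 difference of -0.92 (-0.74 within X09 and -1.44 within X29). Only 1 of the 27 ectoderm-marked cells lay above the median of the other cells. The median ratio of KRT18 to KRT7 reads was 0.142 in ectoderm-marked cells and 0.131 in the other cells, and its log2 difference changed sign with the prefix, at 0.38 within X09 and -0.069 within X29. In mesenchyme-marked cells alone the median ratios of KRT19 to KRT7, KRT18 to KRT19 and KRT18 to KRT7 were 0.336, 0.424 and 0.136.

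**Figure D2:**
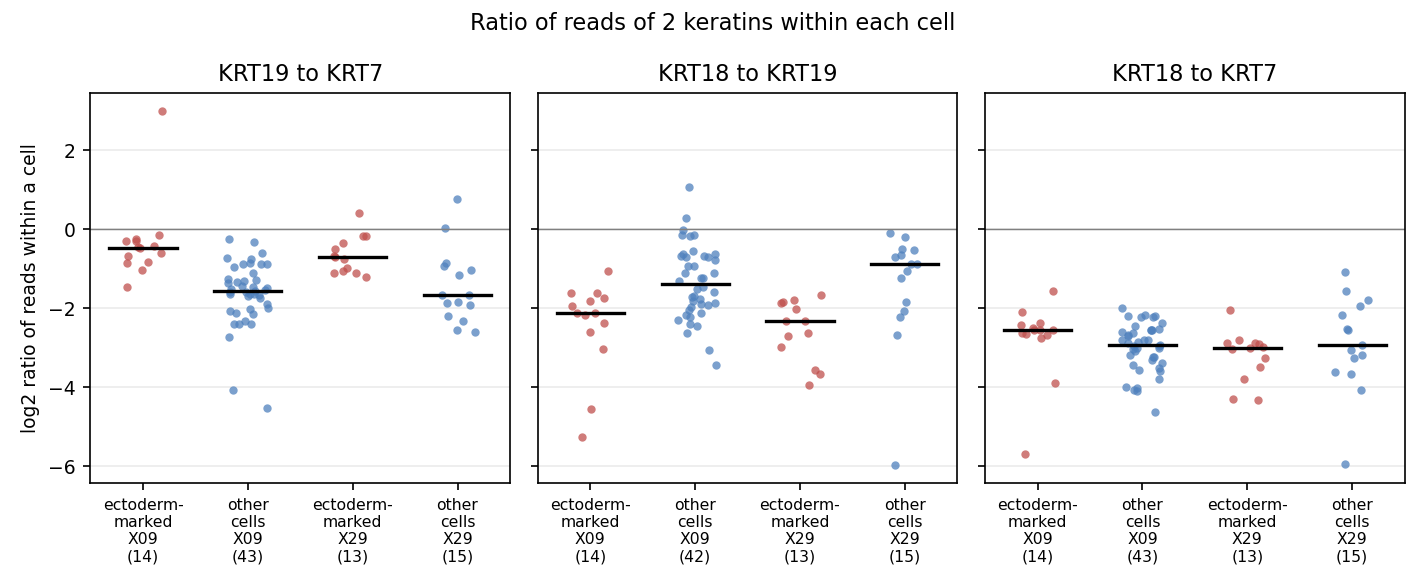
Log2 ratio of reads of a pair of keratins within each cell, for cells that detected both (number in brackets), by group and title prefix. Points are cells, bars are medians and 0 marks equal reads. The KRT19 to KRT7 ratio is higher in ectoderm-marked than in other cells within X09 and within X29, by a median of 1.10 and 0.98, the KRT18 to KRT19 ratio is lower, and the KRT18 to KRT7 ratio changes direction between the prefixes.

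Levels of the 3 genes went together from cell to cell in both groups. Over the 27 ectoderm-marked cells, Spearman's rho of CPM was 0.91 between KRT19 and KRT7, 0.89 between KRT18 and KRT7 and 0.85 between KRT18 and KRT19. Over the 62 other cells the same 3 pairs had rho of 0.83, 0.80 and 0.73, and over the 57 of these that were not endothelial-marked 0.78, 0.75 and 0.65. Within 1 prefix rho ran from 0.84 to 0.96 over ectoderm-marked cells and from 0.65 to 0.82 over the other cells. Without the endothelial-marked cells the range over the other cells was 0.56 to 0.75. Between KRT18 and KRT19 rho was 0.45 over the 19 cells of neither list and 0.72 over the 38 mesenchyme-marked cells. By the rule for a called correlation, a rho of at least 0.4 in size with the same sign in X09 and in X29 cells, all 3 pairs were called positive in both groups. Over ectoderm-marked cells 4.17% of genes were called positive and 5.17% negative with KRT7, 4.2% and 5.59% with KRT18, and 4.56% and 5.88% with KRT19. Over the other cells these were 2.14% and 0.331% with KRT7, 2.37% and 0.229% with KRT18, and 2.8% and 0.306% with KRT19. The cells were treated as 1 pool, and they share the library protocol and the total to which CPM is scaled.

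**Figure D3:**
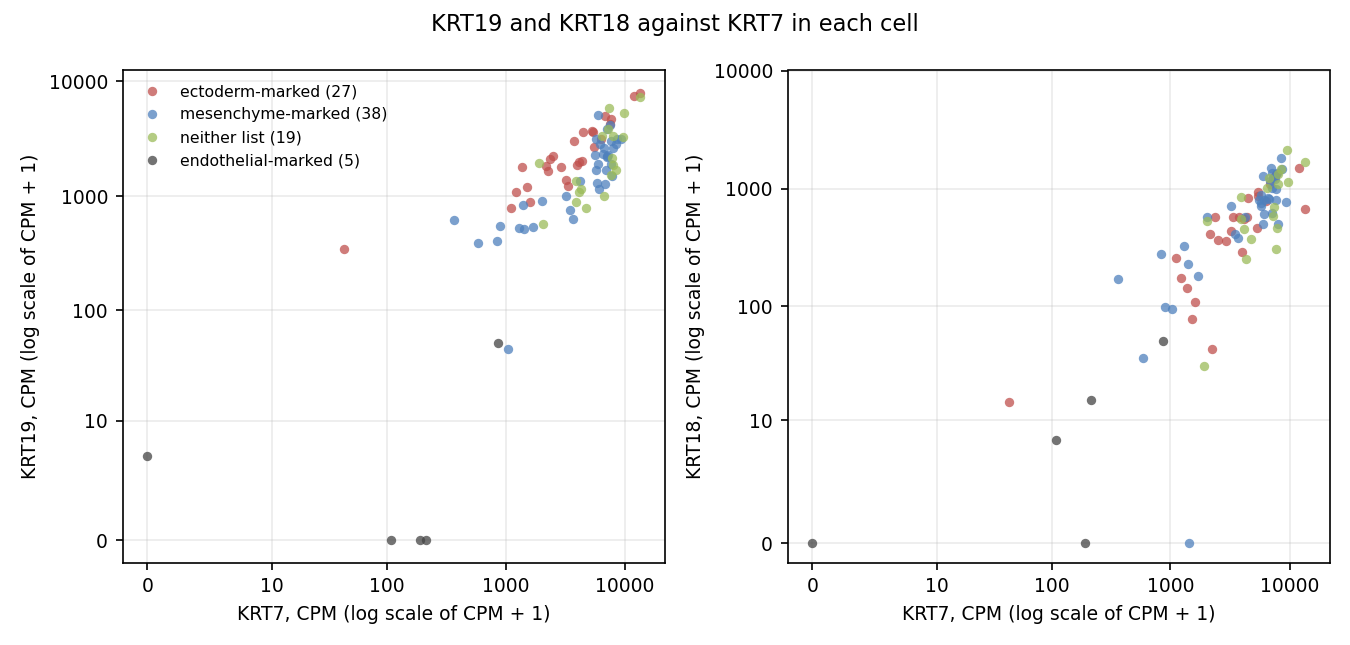
KRT19 (left) and KRT18 (right) against KRT7 in each of the 89 cells, in CPM on log scales of CPM + 1, coloured by the markers the cell detected. Cells high in KRT7 are also high in KRT19, with rho of 0.91 over ectoderm-marked and 0.83 over the other cells, and in KRT18, with 0.89 and 0.80.

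Few genes went with a keratin as closely as the other keratins did. Among 3812 genes detected in at least 50% of ectoderm-marked cells, KRT19 and KRT18 had the highest rho with KRT7, and KRT7 and KRT19 had the highest with KRT18. With KRT19, 1 gene, ANXA2, came before KRT7 and KRT18. Among 3925 genes over the other cells, KRT19 and KRT18 again had the highest rho with KRT7, and KRT7 and KRT19 the highest with KRT18, while KRT18 ranked 7 among the genes going with KRT19.

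In ectoderm-marked cells ANXA2, which encodes annexin A2, a calcium-dependent membrane-binding protein, had the highest rho of any other gene with each keratin, at 0.86 with KRT7, 0.81 with KRT18 and 0.92 with KRT19. Its level was 0, 1270 and 8337 CPM in the lowest, median and highest ectoderm-marked cell, against 0, 1081 and 4221 CPM in the other cells. PERP2, of the family of the mammalian desmosome protein PERP, followed with rho of 0.79 with KRT7 and 0.84 with KRT19. Further genes named by the rule of the 5 highest with a symbol were CDK6 (a cell cycle kinase; 0.74 with KRT7 and 0.74 with KRT18), FABP3 (a fatty acid-binding protein; 0.71 and 0.77 with these) and SGMS1 (a sphingomyelin synthase; 0.69, 0.78 and 0.78 with KRT7, KRT18 and KRT19). RGN, the calcium-binding regucalcin, had 0.75 with KRT18. CTSC, the protease cathepsin C, had 0.77 with KRT19, and VGLL1, a cofactor of TEAD transcription factors, 0.71.

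By the same rule, 167 of 3810 genes (4.38%) went up with the keratin sum over ectoderm-marked cells and 208 (5.46%) went down with it. The median rho over all these genes was -0.04. The 2 lowest values for each keratin came from 5 genes. H1FX, a linker histone, had rho of -0.75 with KRT7 and -0.76 with KRT19. XRCC5, the repair protein Ku80, had -0.74 with KRT7. PARP1, which marks DNA breaks, had -0.75 with KRT18, as did the row named Meis2a.2. HMGB1, a chromatin-bending protein, had -0.77 with KRT19.

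Over the 62 other cells, 99 of 3923 genes (2.52%) went up and 12 (0.306%) went down with the keratin sum, and the median rho was 0.05. FIBIN, a secreted protein first known from fish fin buds, led with KRT7 (0.80) and KRT19 (0.86). Its level was 0, 2317 and 7919 CPM in the lowest, median and highest ectoderm-marked cell, against 0, 838 and 5921 CPM in the other cells, and in the 5 endothelial-marked cells it did not exceed 1.14 CPM. ANXA2 had 0.74 with KRT7 and 0.82 with KRT19, and PERP2 0.69 with KRT18 and 0.82 with KRT19. HAND1, a transcription factor of lateral mesoderm and extraembryonic tissue, had 0.70, 0.69 and 0.78 with KRT7, KRT18 and KRT19. MSX1 (a homeobox gene of limb and amnion fields) and S100A6 (a calcium-binding protein) had 0.70 and 0.68 with KRT7. MAB21L2 and the homeobox gene PITX1 had 0.65 and 0.64 with KRT18, and FJX1, a secreted kinase, had 0.76 with KRT19.

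The lowest rho over the other cells belonged to TESC, a calcium-binding protein, at -0.64 with KRT7 and -0.54 with KRT18, to TTYH3, a channel family member, at -0.57, -0.54 and -0.55 with KRT7, KRT18 and KRT19, and to SRGAP1, at -0.58 with KRT19. The 5 endothelial-marked cells are low in all 3 keratins and bear on these values. Over the 57 cells without them, rho with the keratin sum was 0.81 for FIBIN, 0.79 for ANXA2, 0.69 for HAND1, 0.68 for PERP2 and -0.49 for TESC. Keratin-low cells remained among the 57. In X09, mesenchyme-marked cells with 589 to 1699 CPM of KRT7 stood apart from the next, at 4225 CPM. They held at most 24.9 CPM of ANXA2, 202 CPM of FIBIN and 9.24 CPM of HAND1. These cells were picked after the data were seen. No rho was recomputed without them, so how far the values rest on them was not tested.

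Of 3307 genes measured in both groups, 122 went up with the keratin sum in ectoderm-marked cells and 63 in the other cells. Both held for 20, which is 16.4% of the 122 and 31.7% of the 63. Of all genes measured in a group, 4.38% went up over ectoderm-marked and 2.52% over the other cells. Of the 20, 17 have a symbol. They were ANXA2, PERP2, FIBIN, HAND1, MSX1, CDK6, S100A6, RGN, SGMS1, NUMB, FAM3C, PPIB, PLPP1, SLC35E3, TMLHE, ATP5MC1 and the carboxypeptidase M gene. No gene was called in opposite directions, with 196 of the 3307 negative over ectoderm-marked and 7 over the other cells. Without the endothelial-marked cells, rho over the other cells was 0.35 for CDK6, 0.36 for FAM3C and 0.38 for SLC35E3, and that of the other 14 stayed above 0.4. Spearman's rho with the sum was 0.89 over ectoderm-marked and 0.81 over the other cells for ANXA2, 0.79 and 0.74 for PERP2, 0.70 and 0.85 for FIBIN and 0.64 and 0.75 for HAND1. MSX1, at 0.43 and 0.71, held in ectoderm-marked cells at 0.60 within X09 but only 0.11 within X29. It was not the only gene with low values within X29. Among others, ATP5MC1 had 0.15 there over ectoderm-marked cells, and PPIB 0.096 and RGN 0.22 over the other cells.

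Genes going down with the sum overlapped in 3 cases, 1.53% of the 196 in ectoderm-marked cells and 42.9% of the 7 in the other cells. Of all genes measured in a group, 5.46% went down over ectoderm-marked and 0.306% over the other cells. The 3 were STMN1, which destabilises microtubules, the transcription factor gene SOX11, and MKP3, a phosphatase of MAP kinases. STMN1 had rho of -0.75 over ectoderm-marked and -0.49 over the other cells, with mean levels of 3237 and 2352 CPM. Over the other X29 cells, rho was only -0.21 for STMN1 and -0.20 for SOX11. In the X09 mesenchyme-marked cells with 589 to 1699 CPM of KRT7, STMN1 was at 2510 to 5492 CPM. With levels scaled to spike-in reads in place of total reads, the median rho of all genes moved to 0.26 over ectoderm-marked and 0.41 over the other cells, and that of STMN1 to 0.030 and 0.22. On that scale MKP3 had -0.37 and -0.29, and SOX11 -0.28 and -0.092. Of the genes named above for low values over ectoderm-marked cells, H1FX had -0.49, XRCC5 -0.45, Meis2a.2 -0.29, HMGB1 -0.028 and PARP1 0.16. The negative values thus depended on the scaling to different degrees. ANXA2 ranked 1 of 3810 genes in ectoderm-marked cells and 6 of 3923 in the other cells on the spike-in scale. PERP2 (3 and 2), FIBIN (9 and 1) and HAND1 (23 and 4) also ranked high there. Some genes positive in both groups ranked lower, such as NUMB (211 and 310), RGN (221 and 1334) and TMLHE (541 and 30). RGN had rho of 0.48 over the other cells, near the median of 0.41, so positive values depended on the scaling too.

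**Figure D4:**
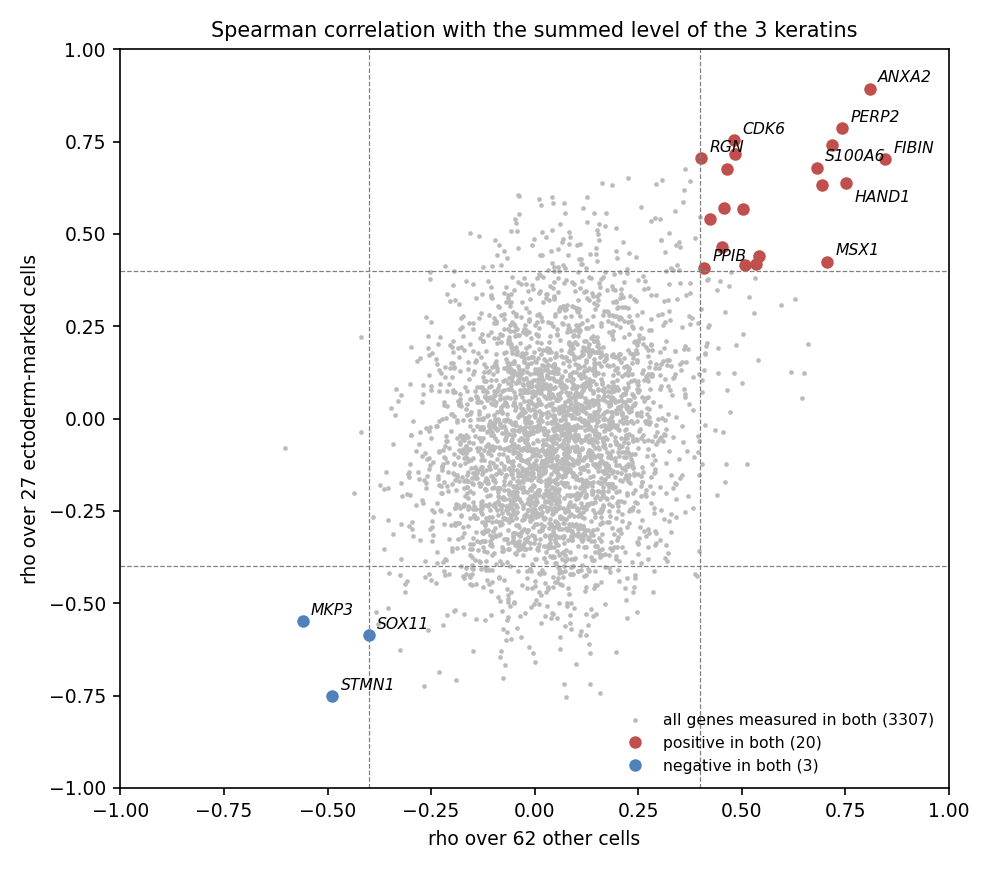
Spearman's rho of each of 3307 genes with the summed CPM of KRT7, KRT18 and KRT19, over the 27 ectoderm-marked cells (vertical axis) and the 62 other cells (horizontal axis). Dashed lines mark 0.4 in size, red points the 20 genes called positive in both and blue points the 3 called negative in both. ANXA2, at 0.89 and 0.81, lies nearest the upper right corner.

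Of the remaining keratins of the table, KRT17, KRT14 and KRT23 were detected in a larger share of ectoderm-marked than of other cells. KRT17, a type I keratin of stressed and basal epithelia, was detected in 17 of 27 ectoderm-marked cells (63%, interval 42.4 to 80.6%) and 9 of 62 other cells (14.5%, interval 6.86 to 25.8%). KRT14, of basal cells, was detected in 13 ectoderm-marked cells (48.1%) and 3 other cells (4.84%). KRT23, a further type I gene, was detected in 11 ectoderm-marked cells (40.7%) and in 0 of 62 other cells. For 0 of 62 the exact interval reaches up to 5.78%, and the approximate upper limit of 3 divided by 62 is 4.84%. All 3 were called higher in ectoderm-marked cells, but they are named here for their larger share there, so that count is no support. Of 5 other rows beginning with KRT that were measured, not all of them keratin genes, 3 were higher, 1 lower and 1 neither. Of all genes measured, 12.7% were called in each direction. KRT14 and KRT23 were detected in under 10% of the other cells, so they counted as measured only through the group where they are high. Mean levels were 99.6, 28.1 and 60.6 CPM for KRT17, KRT14 and KRT23 in ectoderm-marked cells and 7.13, 1.73 and 0.083 CPM in the other cells.

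KRT15 was not called, being detected in 3 of 27 ectoderm-marked and 15 of 62 other cells, with a log2 ratio of -4.66 within X09 and 1.28 within X29. KRT5 and KRT222 reached 10 CPM in 0 and 1 ectoderm-marked cells, and in none of the 62 other cells. The row KRTCAP3 begins with the same letters but is not a keratin gene. At least 1 of KRT14, KRT15, KRT17 and KRT23 was detected in 20 of 27 ectoderm-marked cells and 22 of 62 other cells, and in 0 of the 5 endothelial-marked cells. Together they made 5.60% of the reads of the 6 type I genes in ectoderm-marked cells and 1.07% in the other cells, the rest being KRT18 and KRT19. Only KRT17 was frequent enough to be correlated, with rho of 0.59 with the keratin sum over ectoderm-marked cells.

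**Figure D5:**
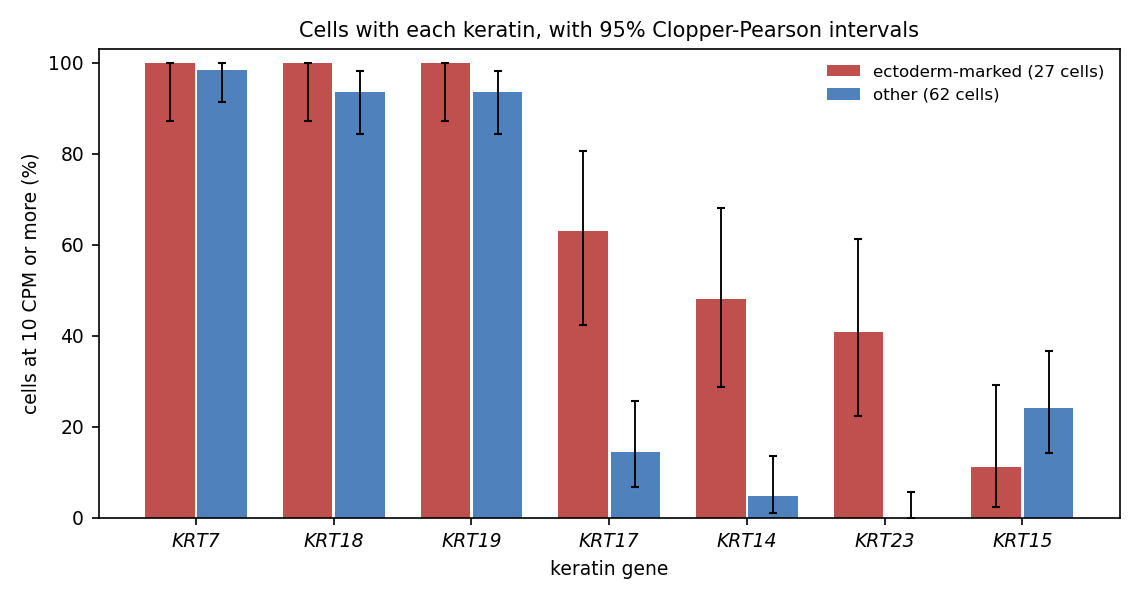
Share of cells at 10 CPM or more for each keratin gene, in 27 ectoderm-marked and 62 other cells, with exact Clopper-Pearson intervals at 95%. KRT7, KRT18 and KRT19 are detected in over 93% of both groups, while KRT17, KRT14 and KRT23 are detected in 40.7 to 63% of ectoderm-marked cells and 0 to 14.5% of the other cells.

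Vimentin, the intermediate filament protein usual in mesenchyme, did not part ectoderm-marked from other cells by the 2-fold rule. VIM was detected in 23 of 27 ectoderm-marked and 52 of 62 other cells, with mean levels of 235 and 276 CPM, and its rho with the keratin sum was -0.25 over ectoderm-marked and -0.24 over the other cells, neither called. Of 7 intermediate filament and lamin genes measured, VIM among them, 2 were higher in ectoderm-marked cells (NEFL and NEFM, neurofilament chains found in 6 ectoderm-marked cells each) and 1 lower (DES, desmin, found in no ectoderm-marked cell and 7 other cells). Of all genes, 12.7% were called in each direction. DES counted as measured only through the other cells, where it was detected.

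Genes that anchor keratins to junctions formed a short list, whose counts are given beside the shares of all genes. Of 10 linker and desmosome genes measured, 2 were higher in ectoderm-marked cells, JUP (plakoglobin, 241 CPM in ectoderm-marked and 81.1 CPM in other cells on average) and PPL (periplakin, 50.0 and 5.69 CPM), and 0 lower, beside 12.7% of all genes in each direction. DSP, the desmoplakin that ties keratin filaments to desmosomes, averaged 446 CPM in ectoderm-marked and 741 CPM in other cells and was detected in all 38 mesenchyme-marked cells, but in 1 of 5 endothelial-marked cells. It was the only one of 7 of these genes called with the keratin sum over the other cells, at rho 0.53, and 0.40 without the endothelial-marked cells, beside 2.52% of all genes called positive. None of 8 was called over ectoderm-marked cells, beside 4.38% of all genes, DSP having 0.29.

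Most genes of a simple-epithelium list, unlike the 3 keratins, were higher in ectoderm-marked cells. Leaving out CDH1 and CLDN3, whose direction the group rule fixes, 13 of 17 measured were higher in ectoderm-marked cells and 0 lower, with a median log2 ratio of 2.62, beside 12.7% of all genes in each direction. None of the 10 genes of the list, these 2 included, that were measured within ectoderm-marked cells was called with the keratin sum. With 4.38% of all genes called positive and 5.46% negative there, 0 of 10 is near the shares of all genes. The median rho of the 10 was 0.11. EPCAM had rho of 0.27, CDH1 -0.012 and CLDN3 -0.29. Of 20 mesenchymal genes, 18 were lower in ectoderm-marked cells and 1, FN1 (fibronectin), was higher, beside the same 12.7% of all genes. Over the other cells 3 of 12 of these were called with the sum, beside 2.52% of all genes called positive. They were COL3A1 (a fibrillar collagen, 0.64), CDH11 (a mesenchymal cadherin, 0.57) and ACTA2 (smooth muscle actin, 0.57). Each stayed above 0.4 without the endothelial-marked cells, at 0.58, 0.49 and 0.48.

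Among regulators that act on simple-epithelial keratin genes in mammals or in trophoblast and surface ectoderm, 9 of 27 measured were higher and 4 lower in ectoderm-marked cells, TFAP2A of the group rule left out, beside 12.7% of all genes in each direction. Over ectoderm-marked cells 4 of 15 were called with the keratin sum, HAND1 (0.64), GATA2 (0.55), the AP-1 gene JUN (0.51) and MSX1 (0.43), beside 4.38% of all genes. Over the other cells it was 5 of 13, HAND1 (0.75), MSX1 (0.71), the trophoblast and hindgut gene CDX2 (0.61), the AP-1 gene FOSL2 (0.52) and MSX2 (0.42), beside 2.52% of all genes. Without the endothelial-marked cells MSX2 had 0.26 and the other 4 had 0.54 to 0.69. TFAP2A itself had rho of -0.12 over ectoderm-marked cells.

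Of 15 actin and other abundant genes, EZR (ezrin, which links actin to the membrane; 0.63) and TPM1 (tropomyosin, 0.56) were called with the sum over ectoderm-marked cells, and MYL9 (a myosin light chain, 0.52) and ACTG1 (gamma-actin, 0.48) among 14 over the other cells. Without the endothelial-marked cells MYL9 had 0.39. Of all genes, 4.38% were called positive with the sum over ectoderm-marked cells and 2.52% over the other cells. YWHAQ, a 14-3-3 protein of the family that binds phosphorylated keratins, had 0.64 over ectoderm-marked cells and 0.29 over the other cells, and was the only one called of 9 in its list. Of 11 genes that respond to dissociation, only JUN was called over ectoderm-marked cells, and 0 of 9 over the other cells. In so short a list these counts are near the 4.38% and 2.52% of all genes. Between the groups, 3 of 13 genes of that list were higher in ectoderm-marked cells and 1 lower (HSPB1, a small heat shock protein), beside 12.7% of all genes in each direction. The 3 were FOS, ATF3 and EGR1, with mean levels of 321, 225 and 237 CPM, against 76.1, 87.5 and 105 CPM in the other cells.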

How the data were processed

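The values deposited by the authors are raw counts of reads, 1 column for each of 89 cells. Full-length cDNA came from SMARTer v4 chemistry on the Fluidigm C1, and Nextera XT libraries were sequenced on a HiSeq, per the labels' protocols. The submitters' processing notes name HISAT2 2.1.0, featureCounts and the build GRCg6a, with settings not given in the sources used here. There were no molecular identifiers, so counts are of reads, not molecules.

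Here, CPM was computed over the 13823 gene rows, without the 3 spike-in rows. Spearman's rho and ratios of means were computed in Python 3.11.15 with numpy 2.4.6. Correlations used genes detected in at least 50% of a group's cells. The 2 calling rules were also run on simulated counts, with noise drawn apart for each gene and cell. Those counts lacked the sub-groups of the other cells, so that run is no support for the calls. Cells of 1 pool are not replicates, so no p-value was computed. Alternatives covered markers, detection level, scaling, prefix, doubtful cells and single cells left out. Named genes were the other KRT rows, the 5 highest and 2 lowest rho with a symbol for each keratin and group, and the extremes of each list; genes named outside this rule were chosen after their values were seen. Members, lists and rules were chosen with earlier results of these data known. Promoter and protein sequences were not used here.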

Additional observations from a re-analysis of the deposited data

How the results depend on the processing

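Of 451 values recomputed under other settings, 403 were scored as the same, 43 as moved and 5 changed sign. A log2 ratio was the same if it kept its sign and moved under 1 SD over cells. For rho the tolerance was 0.2, for shares the interval at 95% and for counts 1.5-fold. These are wide for ratios, so the score says little on their size. The log2 ratio of KRT19, 0.52 over all cells and 1.25 in X29 cells alone, was scored as the same. The log2 difference of the KRT19 to KRT7 read ratio ran from 0.95 to 1.10 and that of the KRT18 to KRT19 ratio from -1.44 to -0.57 over all settings. The 5 that changed sign concern KRT7 and KRT18. With 1 ectoderm marker asked for, the log2 ratio of KRT7 was 0.0048 and the log2 difference of the KRT18 to KRT7 ratio -0.030. In X29 cells alone the log2 ratio was 0.44 for KRT7 and 0.11 for KRT18, and the KRT18 to KRT7 difference was -0.069. Without the endothelial-marked cells, which include 3 X29 cells, the X29 log2 ratio was 0.19 for KRT7 and -0.15 for KRT18. The cause of the other changes was not tested.

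The share of other cells with KRT7 was 100% in X09 cells alone, without endothelial-marked cells and without doubtful cells, and 98.4 to 100% with 1 cell left out at a time. Without endothelial-marked cells the share was 98.2% for KRT18 and 100% for KRT19, and in X29 cells alone 83.3% for each. Spearman's rho of KRT19 and KRT7 over ectoderm-marked cells was 0.66 at 50 CPM for detection and markers.

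Counts of genes going with the keratin sum moved with the scaling, the cells used and the filter on low values. Per spike-in read, 1054 genes were positive and 5 negative over ectoderm-marked cells, and 2067 positive and 0 negative over the other cells. With size factors by median of ratios, 275 were positive and 106 negative over ectoderm-marked cells, and 19 negative over the other cells. In X09 cells alone, 296 were positive and 607 negative over ectoderm-marked cells and 54 negative over the other cells. In X29 cells alone these were 411 positive and 391 negative over ectoderm-marked cells and 325 positive and 115 negative over the other cells. In cells of 1 prefix the condition of the same sign in both prefixes falls away. With genes in at least 90% of cells, 57 were positive and 94 negative over ectoderm-marked cells, and 20 and 2 over the other cells. With no filter on low values, 383 and 374 were called over ectoderm-marked cells and 160 and 76 over the other cells. Pearson's r of log2(CPM + 1) gave 134 negative genes over ectoderm-marked cells. With 1 marker asked for, 85 were negative over ectoderm-marked cells and 24 over the other cells. At 50 CPM, 42 were positive and 6 negative over the other cells, and without doubtful cells 40 were negative there.

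Of genes differing between the groups, 741 were higher in ectoderm-marked cells at 50 CPM, 1900 in X29 cells alone and 647 with 10 CPM added to each mean. The genes lower in ectoderm-marked cells numbered 2269 in X29 cells alone, 1976 with no filter and 566 with 10 CPM added. This count was not run per spike-in read or on medians. The ranks of named genes under other scalings, the 26 other cells without epithelial transcripts, and the values without the 3 other cells with EPCAM and CLDN1, without endothelial-marked cells within a prefix and without rule genes in lists were added after the data were seen. With all cells treated as 1 pooled sample, the spread between embryos is unknown, and the number of ectoderm-marked cells limits every share and rho over them.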

Other observations

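Genes of mesothelium, the simple epithelium that lines body cavities and also carries these keratins in mammals, differed in direction between the groups. Of 5 measured, 2 were higher in ectoderm-marked cells and 1 lower, against 12.7% of all genes in each direction. UPK1B, a uroplakin, was detected in 26 of 27 ectoderm-marked and 6 of 62 other cells, with mean levels of 995 and 39.4 CPM. UPK3B, another gene named as a uroplakin, was detected in 16 and 2 cells of these groups, at 29.8 and 1.95 CPM. Both were detected in under 10% of the other cells, so they counted as measured only through the group where they are high. BNC1, the transcription factor basonuclin, was detected in 3 ectoderm-marked and 18 other cells, at 5.57 and 32.4 CPM. None of the 4 measured over ectoderm-marked cells and none of the 2 over the other cells was called with the keratin sum. Of all genes, 4.38% and 2.52% were called positive in these groups, so counts of none are near those shares. UPK1B and UPK3B had rho of 0.37 and 0.39 over ectoderm-marked cells.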
